A study of Homo sapiens with 10 samples.

Results

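The 44 genes described here encode proteins of the kinetochore, the spindle checkpoint and their close partners. They were taken from the deposited expression table by gene symbol, 44 of the 16734 genes measured. The list of symbols was drawn up with earlier results of these data known. By the known place of their products they fall into 13 inner kinetochore genes, 3 genes of CENP-A deposition, 15 outer kinetochore genes, 6 spindle checkpoint genes, 4 genes of the chromosomal passenger complex and 2 shugoshins. CENPJ, the remaining member, carries a CENP symbol but encodes a centriole protein, and it is given apart.

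The RNA came from MIA PaCa-2, an established human cell line derived from a pancreatic ductal adenocarcinoma. In the treated group the cells had 10 µM hydroxyprogesterone caproate (HPC), a synthetic ester of a progesterone derivative, for 24 h. The control group had the same volume of the solvent DMSO for 24 h, and both groups shared the cell line, medium and incubation. Each group had 5 libraries of poly(A) RNA, which the labels number 1 to 5 and call biological replicates without naming culture days or batches, so the p-values below measure the spread between these libraries of 1 cell line.

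Kinetochores assemble on centromeres, which are marked by nucleosomes that hold the histone H3 variant CENP-A. Inner kinetochore proteins bind that chromatin through the whole cell cycle, and in mitosis the outer kinetochore, built from the KNL1, MIS12 and NDC80 complexes, is added on top and holds the ends of spindle microtubules. Kinetochores without microtubules recruit BUB1, BUBR1, BUB3, MAD2 and the kinase TTK, the spindle checkpoint, which keeps CDC20 from switching on the anaphase-promoting complex, while the chromosomal passenger complex releases wrongly attached microtubules. Many of these genes are transcribed mainly in G2 phase and mitosis, through promoters with a CHR element (cell cycle genes homology region) and CCAAT boxes that are bound by the DREAM and MuvB complexes, B-MYB, FOXM1 and NF-Y.

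Values are FPKM, which divides the fragments of a gene by its length and by the size of the library. The lengths implied by the table's steps were 2.32 times the GENCODE exon length at the median over genes, with quartiles of 1.66 and 3.23, so levels are compared here only within a gene, and ratios of genes only for how they changed. Reads recovered from the table summed to 71603127 to 82219086 per library in DMSO and 65851927 to 74477678 in HPC. Across tested genes, Pearson's r was 0.989 to 0.994 for libraries within a group and 0.842 to 0.863 for libraries from different groups. Mitochondrially encoded genes took 22.6% ± 0.704 (SD, n = 5) of the FPKM in DMSO and 14.8% ± 0.717 in HPC. Of the 10 epithelial and mesenchymal markers, KRT8, KRT18, KRT19, SOX9 and VIM were expressed in both groups. Of these, KRT19 fell by 1.25, SOX9 by 1.50 and VIM by 1.06 on the log2 scale, while KRT8 rose by 0.15 and KRT18 by 0.39. The summed level of the 10 markers was 898 to 938 FPKM in DMSO and 545 to 585 in HPC. Most of that sum was VIM, with means of 695 FPKM in DMSO and 333 in HPC. In contrast, EPCAM, CDH1 and CFTR were at or near 0, and KRT7 and MUC1 stayed under 1 FPKM. Mean KRT7 was 0.226 FPKM in DMSO and 0.0352 in HPC, and mean MUC1 was 0.808 and 0.0649. Of the 13 immune, endothelial and fibroblast markers measured, 11 were under 1 FPKM in every library, with PTPRC, PECAM1, DCN and LUM at or near 0. Their summed level was 27.2 to 29.5 FPKM in DMSO and 0.969 to 1.17 in HPC. The 2 markers of that list that were tested, both through the DMSO libraries alone, were COL1A2, which fell from a mean of 25.8 to 0.809 FPKM, and CDH5, which fell from 1.42 to 0.0124. The part of these markers in the results below was not tested. Values scaled without the mitochondrial genes are given for the members that rose, for BUB3, and for counts and group medians, but not for genes outside the members.

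Nearly every member was lower in HPC. Of the 42 members that passed the filter of at least 1 FPKM in at least 5 libraries, 39 fell and 3 rose at an adjusted p under 0.05 (limma on log2(FPKM + 0.1), Benjamini-Hochberg over all 9150 tested genes). The background is high, since 44.8% of all tested genes were called lower and 42.9% higher. The median log2 fold change over the 44 members was -1.11, against -0.01 over all tested genes. In the fit of all genes without a filter, which includes CENPP and SGO1, 41 of 44 members fell and 3 rose, against 36.2% and 31.2% of all genes. At least 2-fold lower were 24 of the 44 members, against 8.11% of all genes, and at least 4-fold lower was 1 member, SKA2, against 1.29%. BUB1B and SPC24 lay close to that line, so that 3 members were past it with a pseudocount of 0.01, with TPM rescaling or with voom, and 4, with TTK, under the non-mitochondrial sum. It was 2 members without HPC replicate 3, where SPC24 joined SKA2, and 2 without HPC replicate 4, where BUB1B did. The HPC and DMSO libraries did not overlap for 44 of 44 members, against 58.4% of all genes. The shares over all genes cover 16734 genes, of which 9150 passed the filter, while 42 of the 44 members did. These shares therefore come from a set with far more low genes than the members.

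Low members did not make up the pattern alone. At least 1 FPKM in every library was reached by 34 members, and of these 31 fell and 3 rose. CENPC, SPC24 and KNL1 passed the filter only through the DMSO libraries, and CENPM, OIP5, SKA3, CENPE and CENPJ through DMSO and some HPC libraries. With a pseudocount of 1, the log2 fold changes of CENPC, CENPL, CENPM, SPC24, DSN1, KNL1, SKA3, CENPE and CENPJ were smaller by more than 1.5 times, from -1.19 to -0.28, and all 9 still passed the test. Behind each value stood 105 to 21802 reads per member and library. Scaling each library to its non-mitochondrial sum moved the median of all genes from -0.01 to -0.18 and the calls over all genes from 3922 higher and 4099 lower to 2957 higher and 5015 lower, but it left 39 members lower and 2 higher. MKI67, a protein of dividing cells, fell by 1.99 on the log2 scale (SE 0.036, adjusted p = 2.49e-14), and MCM2, a subunit of the replicative helicase, fell by 1.67 (SE 0.026, adjusted p = 8.41e-15). In bulk RNA, fewer cells in mitosis and less of each transcript per cell cannot be told apart.

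**Figure D1:**
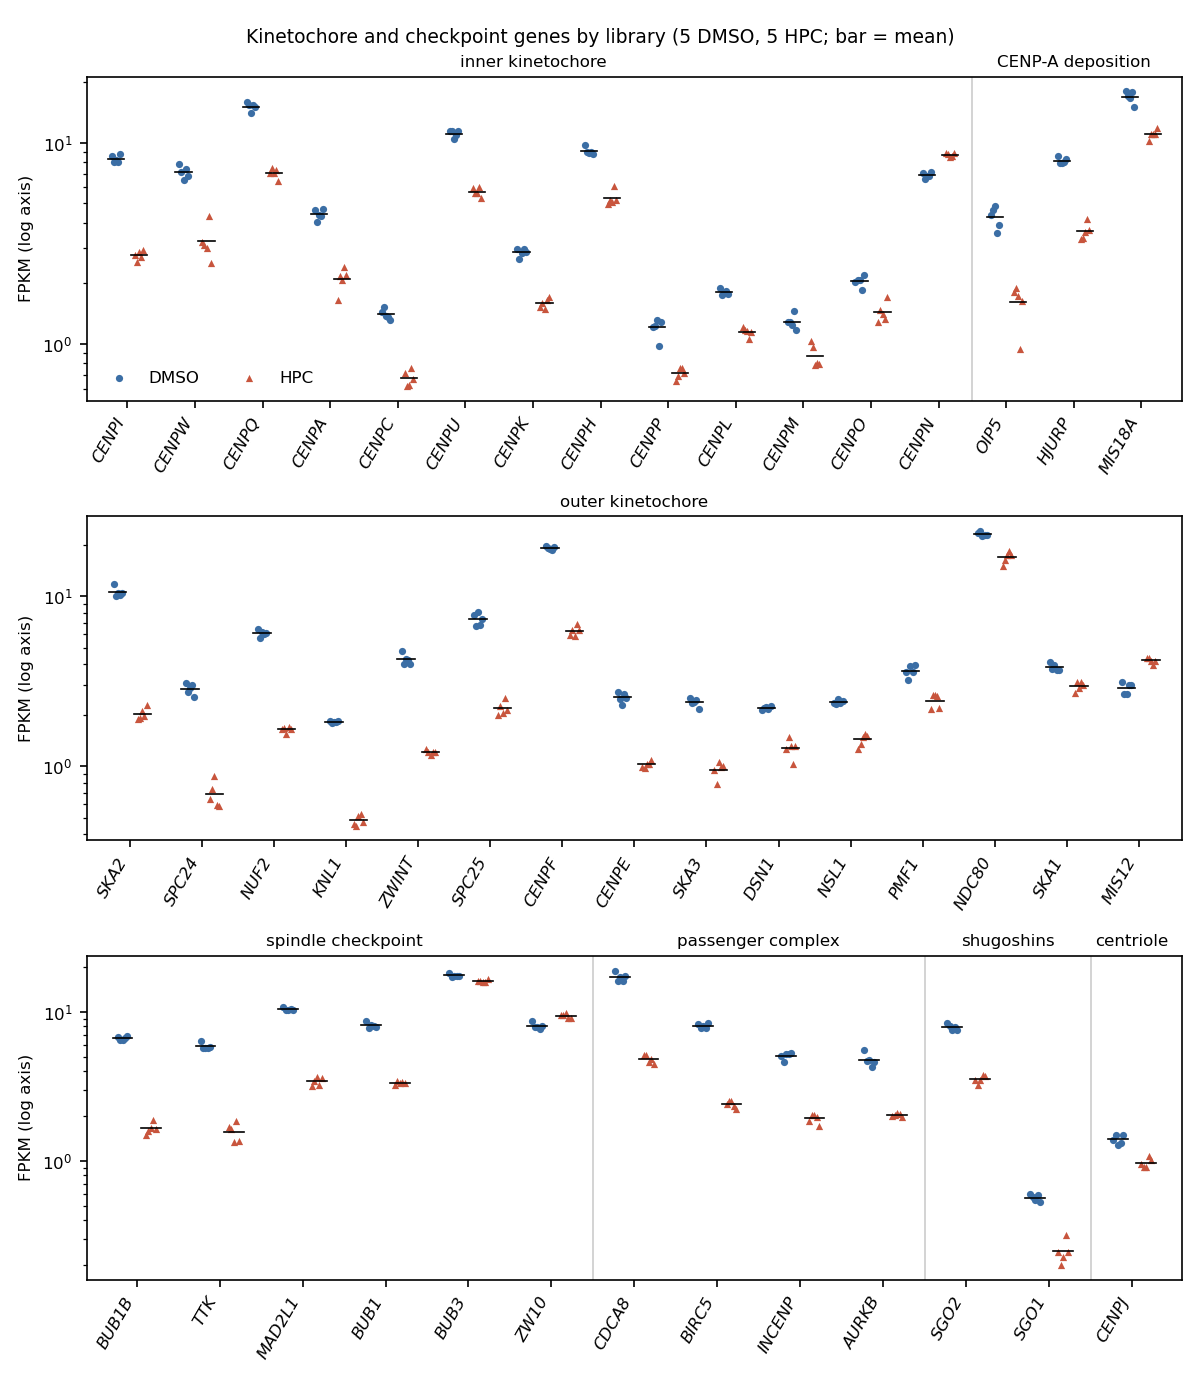
FPKM of the 44 genes in each library, on a log axis, with 5 DMSO libraries as circles, 5 HPC libraries as triangles and group means as bars. Genes are ordered within their group by log2 fold change, and for each gene the circles and triangles do not overlap, with the triangles on top only for CENPN, MIS12 and ZW10.

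Of the 12 inner kinetochore genes tested, 11 fell and CENPN rose. Over all 13 measured, the log2 fold changes ran from -1.56 to 0.33 with a median of -0.80. CENPA, the centromeric histone itself, stood at 4.65, 4.04, 4.39, 4.34 and 4.70 FPKM in DMSO replicates 1 to 5 and at 1.66, 2.18, 2.07, 2.42 and 2.19 in HPC replicates 1 to 5. The highest HPC library was well under the lowest DMSO library, and CENPA fell by 1.04 (log2, SE 0.080, adjusted p = 4.56e-08). In GENCODE 29 it shares 6.96% of its exon length with SLC35F6 on the same strand, which rose by 0.84.

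The largest fall of the inner kinetochore was that of CENPI, on the X chromosome, a subunit of the CENP-H/I/K/M complex that links centromeric chromatin to the outer layers. Its DMSO values were 8.58, 8.07, 8.25, 7.99 and 8.79 FPKM and its HPC values 2.78, 2.55, 2.87, 2.7 and 2.92. All HPC libraries lay far under the DMSO libraries, and the fall was 1.56 (log2, SE 0.041, adjusted p = 6.29e-13). CENPW, a histone-fold protein that binds DNA with CENP-T, had 7.84, 7.20, 6.55, 7.39 and 6.84 FPKM in DMSO against 3.22, 3.09, 3.00, 4.33 and 2.53 in HPC. HPC replicate 4 was the highest of its group but still under every DMSO library, and CENPW fell by 1.14 (SE 0.12, adjusted p = 2.76e-06).

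CENPN went the other way. It reads the CENP-A nucleosome directly, as the partner of CENPL, and it is on chromosome 16. CENPN was at 7.04, 6.63, 6.81, 6.81 and 7.20 FPKM in DMSO and at 8.86, 8.76, 8.46, 8.60 and 8.90 in HPC. Each HPC library was above each DMSO library, and the rise was 0.33 (log2, SE 0.029, adjusted p = 1.01e-07). With libraries scaled to their non-mitochondrial sum it was 0.17 (adjusted p = 0.000114, limma). CENPN shares 12.8% of its exon length with CMC2, a gene on the other strand that rose by 0.28. Whether reads were counted by strand is not given in the sources used here, so reads of these partners cannot be told apart in the shared part.

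The other inner kinetochore genes fell by less than CENPW did. CENPQ fell by 1.08 and CENPU by 0.95, both subunits of the CENP-O/P/Q/U/R complex, from means of 15.1 to 7.09 FPKM and 11.1 to 5.70. CENPO of the same complex fell by 0.48, and CENPP, which did not pass the filter, fell by 0.68 in the fit without it. CENPC, which bridges CENP-A to the MIS12 complex, fell by 0.96, from a mean of 1.41 to 0.677 FPKM. CENPK fell by 0.80, CENPH by 0.77 and CENPM by 0.52, all partners of CENPI, and CENPL fell by 0.61. Exons of CENPO overlap ADCY3 on the other strand over 27.0% of its exon length, those of CENPP overlap IPPK over 38.0% and those of CENPU overlap PRIMPOL over 11.7%.

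All 3 genes that place new CENP-A fell, with a median of -1.14. HJURP, the chaperone of CENP-A, was at 8.61, 7.94, 7.90, 7.99 and 8.30 FPKM in DMSO and at 3.34, 3.38, 3.62, 4.18 and 3.67 in HPC. The groups were far apart, and HJURP fell by 1.14 (log2, SE 0.054, adjusted p = 1.92e-10). OIP5 (MIS18-beta), which with MIS18A brings HJURP to centromeres, had 4.36, 4.61, 4.85, 3.57 and 3.90 FPKM in DMSO and 1.81, 1.9, 1.74, 0.944 and 1.63 in HPC. HPC replicate 4 was the lowest library, with no overlap between the groups, and the fall was 1.38 (SE 0.17, adjusted p = 2.89e-05). MIS18A itself stood at 18.0, 17.1, 16.7, 17.8 and 15.0 FPKM in DMSO and at 10.2, 11.1, 11.1, 11.1 and 11.8 in HPC, a fall by 0.61 (SE 0.050, adjusted p = 7.82e-08) that kept the groups apart.

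The 15 outer kinetochore genes spread most, from -2.32 to 0.52 with a median of -1.23, and 14 fell while MIS12 rose. Within the SKA complex, which tracks microtubule ends and holds the kinetochore to them, the subunits moved by different amounts. SKA2 had 11.8, 10.0, 10.4, 10.2 and 10.5 FPKM in DMSO and 1.89, 1.93, 2.11, 1.98 and 2.29 in HPC. No other member fell as far: the fall was 2.32 (log2, SE 0.055, adjusted p = 2.47e-13), which left 20% of the DMSO level. SKA1 was at 4.13, 3.72, 3.92, 3.71 and 3.67 FPKM in DMSO and at 2.71, 3.15, 2.89, 3.13 and 2.99 in HPC. The gap between the groups was narrow, and SKA1 fell by 0.36 (SE 0.047, adjusted p = 9.34e-06). SKA3 lay between them with a fall by 1.23, from a mean of 2.38 to 0.958 FPKM.

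The NDC80 complex, a rod of 4 proteins whose NDC80 and NUF2 heads bind the microtubule, was split in the same way. NDC80 stood at 23.7, 24.2, 22.7, 22.9 and 22.8 FPKM in DMSO and at 15.1, 16.4, 17.6, 18.4 and 17.5 in HPC. It kept 72.9% of its DMSO level, a fall by 0.46 (SE 0.046, adjusted p = 6.04e-07), with no overlap. NUF2, its direct partner, was at 6.44, 5.65, 6.16, 5.98 and 6.09 FPKM in DMSO and at 1.66, 1.69, 1.55, 1.70 and 1.65 in HPC. The HPC libraries were tightly grouped at 28.4% of DMSO, and NUF2 fell by 1.82 (SE 0.040, adjusted p = 1.17e-13). SPC24, at the inner end of the rod, had 3.08, 2.73, 2.89, 2.99 and 2.57 FPKM in DMSO and 0.641, 0.741, 0.875, 0.597 and 0.588 in HPC, and fell by 1.92 (SE 0.091, adjusted p = 2.50e-10) with every HPC library under 1 FPKM. SPC25, which pairs with SPC24, fell by 1.70, from a mean of 7.33 to 2.19 FPKM.

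The MIS12 complex joins the inner kinetochore to NDC80 and KNL1. MIS12 was the member with the largest rise, from 3.14, 2.68, 2.66, 3.01 and 3.02 FPKM in DMSO to 4.36, 4.34, 4.19, 3.97 and 4.19 in HPC. All HPC libraries were above all DMSO libraries, and the rise was 0.52 (log2, SE 0.049, adjusted p = 2.50e-07). Under the non-mitochondrial sum the rise of MIS12 was smaller, at 0.36, and it still passed the limma test. DSN1, a subunit of the same complex, had 2.15, 2.21, 2.24, 2.17 and 2.28 FPKM in DMSO against 1.27, 1.49, 1.32, 1.04 and 1.32 in HPC. It fell by 0.75 (SE 0.071, adjusted p = 2.90e-07), and the other subunits NSL1 and PMF1 fell by 0.70 and 0.56. MIS12 shares 9.53% of its exon length with DERL2 on the other strand, and PMF1 shares 23.3% with the read-through gene PMF1-BGLAP.

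KNL1, the scaffold that recruits BUB1 and BUB3, was low but even, at 1.86, 1.81, 1.83, 1.82 and 1.86 FPKM in DMSO and at 0.459, 0.449, 0.514, 0.523 and 0.468 in HPC. Each group was narrow and the groups were well apart, and KNL1 fell by 1.73 (log2, SE 0.048, adjusted p = 9.64e-13). ZWINT, its partner, fell by 1.73 as well, from a mean of 4.26 to 1.22 FPKM. CENPF, a large coiled-coil protein of G2 and mitosis, fell by 1.61, from 19.2 to 6.26 FPKM, and the kinesin CENPE fell by 1.23, from 2.55 to 1.03.

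**Figure D2:**
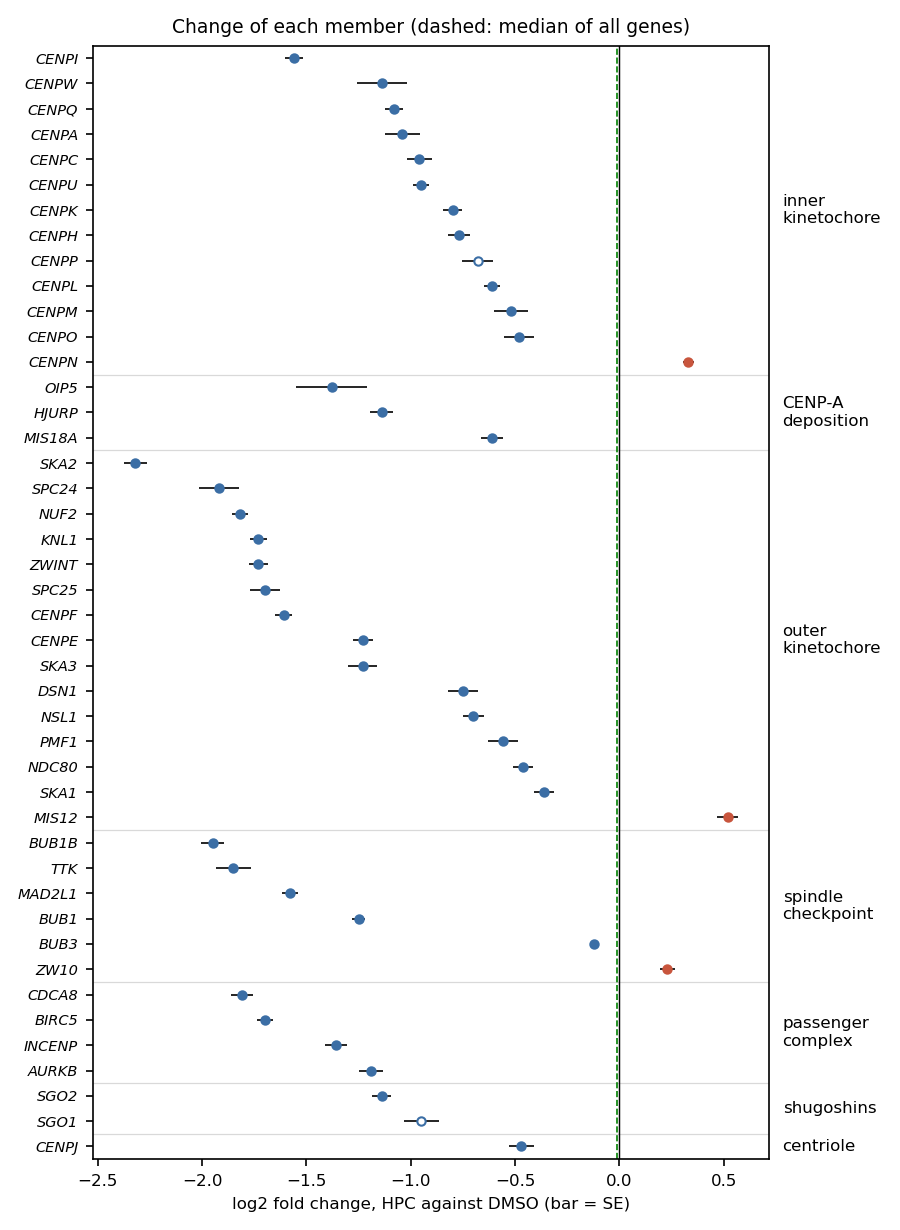
Log2 fold change of HPC against DMSO for each member with its standard error (limma), from the fit of all genes without a filter, grouped by place in the kinetochore. Open points are the 2 genes under the filter, blue points fell and red points rose, and the dashed line is the median of all genes at -0.01.

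Of the 6 spindle checkpoint genes 5 fell and ZW10 rose, with a median of -1.42. BUB1B encodes BUBR1, which binds CDC20 in the inhibitory complex, and it was at 6.75, 6.47, 6.46, 6.68 and 6.86 FPKM in DMSO and at 1.48, 1.58, 1.67, 1.89 and 1.64 in HPC. The groups were far apart, and the fall was 1.95 (log2, SE 0.053, adjusted p = 8.16e-13). TTK (MPS1), the kinase that starts checkpoint signalling, had 6.41, 5.72, 5.69, 5.73 and 5.79 FPKM in DMSO and 1.68, 1.63, 1.33, 1.85 and 1.36 in HPC. DMSO replicate 1 was the highest, and TTK fell by 1.85 (SE 0.079, adjusted p = 1.17e-10). MAD2L1, which encodes the MAD2 protein that locks onto CDC20, was at 10.8, 10.2, 10.2, 10.4 and 10.3 FPKM in DMSO and at 3.18, 3.43, 3.65, 3.24 and 3.58 in HPC. It fell by 1.58 (SE 0.039, adjusted p = 3.77e-13) with no overlap.

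BUB1, the kinase that marks centromeres for shugoshin, stood at 8.65, 7.79, 8.21, 8.01 and 7.87 FPKM in DMSO and at 3.24, 3.42, 3.33, 3.39 and 3.32 in HPC. The HPC libraries were nearly level, and BUB1 fell by 1.25 (log2, SE 0.033, adjusted p = 6.10e-13). BUB3, the WD40 protein that carries both BUB1 and BUBR1 to KNL1, fell by less than any other member that fell, with a mean of 17.6 ± 0.389 FPKM (SD, n = 5) in DMSO and 16.1 ± 0.285 in HPC. Its fall by 0.12 passed the limma test (SE 0.024, adjusted p = 0.000279), and with the non-mitochondrial sum it fell by 0.29. ZW10, a subunit of the RZZ complex that also works in membrane traffic between Golgi and endoplasmic reticulum, had 8.70, 7.89, 7.90, 7.62 and 7.97 FPKM in DMSO and 9.55, 9.51, 9.85, 9.14 and 9.12 in HPC. The groups did not overlap and the rise was 0.23 (SE 0.036, adjusted p = 4.29e-05). It did not hold with libraries scaled to their non-mitochondrial sum, where the difference was 0.07 with an adjusted p of 0.0871 (limma).

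All 4 genes of the chromosomal passenger complex fell, with a median of -1.53. AURKB, its kinase, was at 5.57, 4.66, 4.74, 4.28 and 4.60 FPKM in DMSO and at 2.00, 2.03, 2.08, 2.06 and 1.95 in HPC. DMSO replicate 1 was the highest and the HPC libraries were close together, and AURKB fell by 1.19 (log2, SE 0.057, adjusted p = 2.33e-10). CDCA8 (borealin), which helps target the complex to centromeres, had 18.9, 16, 17.2, 16.2 and 17.4 FPKM in DMSO and 5.12, 5.15, 4.60, 4.78 and 4.44 in HPC, and fell by 1.81 (SE 0.052, adjusted p = 1.45e-12). BIRC5 (survivin), its other targeting subunit, was at 8.24, 7.74, 8.02, 7.81 and 8.37 FPKM in DMSO and at 2.41, 2.50, 2.52, 2.33 and 2.23 in HPC, and fell by 1.70 (SE 0.039, adjusted p = 1.62e-13). CDCA8 kept 28.5% of its DMSO level and BIRC5 30.7%, with no overlap. INCENP, the scaffold, fell by 1.36, from a mean of 5.07 to 1.92 FPKM.

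The shugoshins guard the cohesin that holds sister centromeres together. SGO2 stood at 8.39, 8, 7.54, 7.90 and 7.60 FPKM in DMSO and at 3.46, 3.23, 3.47, 3.75 and 3.72 in HPC, and fell by 1.14 (log2, SE 0.044, adjusted p = 2.50e-11) with no overlap. SGO1 did not pass the filter, at means of 0.565 and 0.246 FPKM, and fell by 0.95 in the fit without it (adjusted p = 1.11e-06, limma). CENPJ, the centriole gene, was at 1.38, 1.48, 1.27, 1.32 and 1.48 FPKM in DMSO and at 0.946, 0.901, 0.906, 1.08 and 1.01 in HPC. It fell by 0.47 (SE 0.061, adjusted p = 6.14e-06), a smaller fall than the median of each of the other groups.

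Partners in 1 complex did not keep their ratio in each case. The ratio of partner genes within a library does not depend on the scaling between libraries. For this, 18 pairs of partners were listed with earlier results of these data known, and other pairs within the complexes were not tested. The test was exact permutation (two-sided) of all 252 ways to assign the libraries, with 0.00794 as the smallest p and adjustment over the 18 pairs. The ratio differed between the groups in 9 pairs, and in 8 of them by more than 1.5-fold. No share over other pairs of genes was computed to set beside this count. Since 44.8% of all tested genes were called lower and 42.9% higher, the count is not read as particular to partners. SKA2 over SKA1 was 2.85, 2.69, 2.66, 2.75 and 2.87 in DMSO and 0.699, 0.613, 0.731, 0.632 and 0.766 in HPC. The log2 ratio fell by 2.01 (SE 0.065, exact adjusted p = 0.0179). NUF2 over NDC80 was 0.271, 0.233, 0.271, 0.261 and 0.267 in DMSO and 0.110, 0.103, 0.0877, 0.0926 and 0.0944 in HPC, so that the log2 ratio fell by 1.42 (SE 0.072, exact adjusted p = 0.0179). MIS12 over DSN1 was 1.46, 1.21, 1.19, 1.39 and 1.33 in DMSO and 3.44, 2.92, 3.18, 3.84 and 3.18 in HPC, a rise of the log2 ratio by 1.33 (SE 0.086, exact adjusted p = 0.0179). In these pairs no HPC library overlapped a DMSO library.

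Of the remaining ratios that differed, BUB3 over BUB1 rose by 1.16, from a mean of 2.17 to 4.84. CENPM over CENPI rose by 1.03 and CENPN over CENPL by 0.99. SKA3 over SKA1 fell by 0.95 and BUB1B over BUB1 by 0.73, each of these 5 with an exact permutation adjusted p of 0.0179. CENPQ over CENPU fell by 0.13, from 1.36 to 1.24 (exact permutation adjusted p = 0.0317). In the other 9 pairs the test did not pass. The ratio of HJURP to CENP-A transcripts was 1.77 to 1.97 in DMSO and 1.55 to 2.01 in HPC, and that of SPC25 to NUF2 was 1.14 to 1.31 and 1.20 to 1.48. SPC25 over SPC24 had the largest log2 difference of these 9, 0.32 with an SE of 0.15 (exact permutation adjusted p = 0.104). The others were NSL1 over DSN1, ZWINT over KNL1, CENPK over CENPH, SGO2 over SGO1, INCENP over AURKB and BIRC5 over CDCA8, with log2 differences from -0.17 to 0.12.

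**Figure D3:**
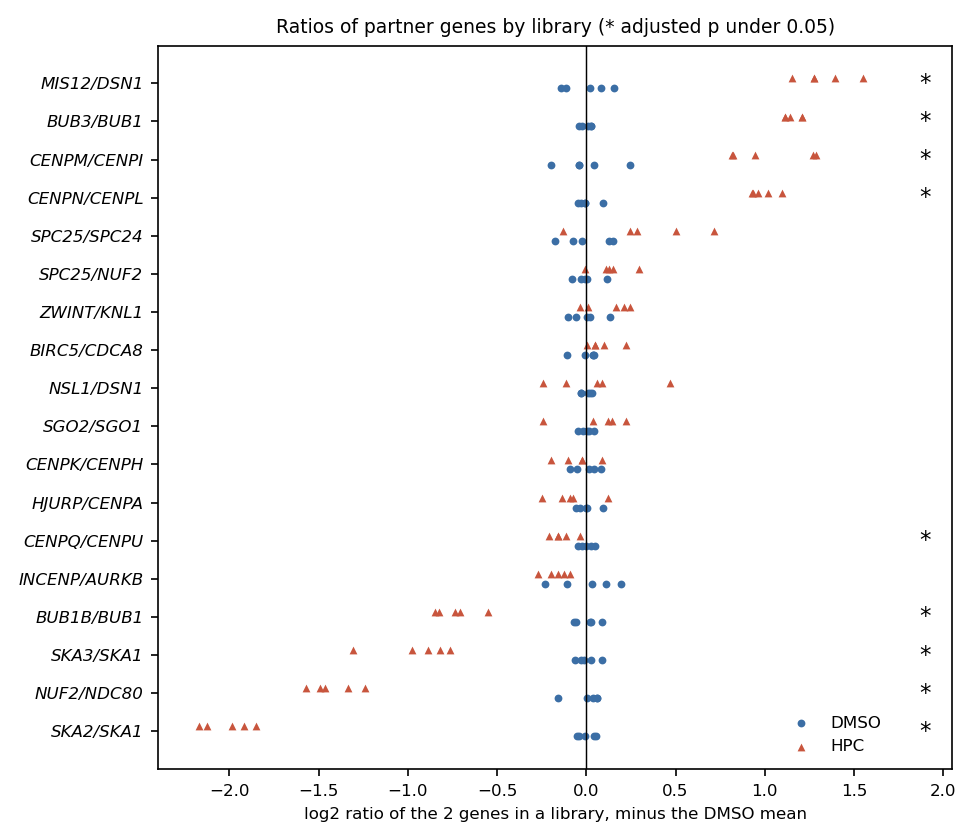
Log2 ratio of partner genes in each library, minus the DMSO mean of that pair, with DMSO as circles and HPC as triangles. Stars mark the 9 of 18 pairs with an adjusted p under 0.05 (exact permutation), of which SKA2/SKA1 lies lowest at -2.01 and MIS12/DSN1 highest at 1.33.

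Genes around the members were counted from lists of their pathways. Of 17 other kinetochore and centromere genes tested, 13 fell and 4 rose, against 44.8% and 42.9% of all tested genes. ITGB3BP (CENP-R) fell most, by 1.77, but passed the filter only through the DMSO libraries, and KNTC1, an RZZ subunit that passed in both groups, fell by 1.73. BOD1, which protects chromosome attachments, rose most, by 0.72. TRIP13, the ATPase that takes the MAD2 complex apart, fell by 1.19, from a mean of 16.7 to 7.28 FPKM. MAD1L1, which holds MAD2 at kinetochores, rose by 0.09, from 2.09 to 2.24 (adjusted p = 0.0273, limma). Its change with the non-mitochondrial sum is not given here, and that scaling took the rise of ZW10 from 0.23 to 0.07. Of 16 anaphase-promoting complex genes tested, including activators and E2 enzymes, 10 fell, 5 rose and 1 did not pass. The shares over all tested genes were again 44.8% lower and 42.9% higher. CDC20, the target of the checkpoint, fell by 0.82, the largest fall of its tested genes, from 32.2 to 18.2 FPKM, and UBE2S, an E2 enzyme of the complex, rose by 0.87. The 12 genes of phosphatases 1 and 2A, which oppose Aurora B and checkpoint kinases, were split into 6 higher and 6 lower. That split is near the 42.9% higher and 44.8% lower of all tested genes. The phosphatase genes ran from PPP1CC, which fell by 0.87, to PPP2R5B, which rose by 1.30.

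Of 11 tested genes of the DREAM, MuvB and FOXM1 regulators, 9 fell, 1 rose and 1 did not pass, against 44.8% lower and 42.9% higher of all tested genes. MYBL2, which encodes B-MYB, fell most, by 1.57 (log2, SE 0.026, adjusted p = 1.15e-14), from a mean of 47.2 to 15.8 FPKM. FOXM1 fell by 1.06, from 11.4 to 5.42 FPKM. RBL2, which encodes the DREAM pocket protein p130, fell by 0.59, and E2F4 rose by 0.26. LIN54, the MuvB subunit that binds the CHR, did not reach the filter, at means of 0.685 and 0.644 FPKM, with a log2 difference of -0.08 (adjusted p = 0.246, limma without the filter). LIN37 of the same list was also under the filter, at means of 0.474 and 0.951 FPKM. It rose by 0.85 in that fit (adjusted p = 0.000767, limma), more than E2F4.

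Promoters of the members were searched because this set is known for CHR and CCAAT sites. RefSeq windows on GRCh38.p14, of 250 bases before to 50 after the start, matched 35 of the 44 members by symbol, and the first window was taken where a gene had several, as for MIS12. Without a window were CENPH, CENPL, CENPM, MIS18A, KNL1, BUB3, TTK, BIRC5 and CENPJ. Both strands were read for the CHR (TTTGAA or TTCGAA), the CCAAT box (CCAAT, or ATTGG on the other strand) and an E2F site (TTTCCCGC, TTTCGCGC, TTTGCCGC or TTTGGCGC). These motifs were searched separately, and matches could overlap. A CHR match was in 21 of 35 windows, which is 60% of them, against 16.4% of all 35116 windows and 12.2% of the first windows of the 13019 table genes that have one. CCAAT was in 24, or 68.6%, against 34.6% and 36.3%. An E2F match was in 4, or 11.4%, against 3.31% and 4.87%. Of the 21 genes with a CHR match, 18 had one within 50 bases of the start. The ATF4 element TGATGCAA was in 0 of the 35 windows, against 0.866% of all windows.

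The windows below end at the base before the RefSeq start and show where the matches lie in genes named above, in capitals within lower case, 5′ to 3′. In GENCODE 29 the first base of each of these genes lies inside its window or upstream of it, so that some annotated transcripts include part of the sequence. The first 4 hold a CHR close to the start, in CENPA (chr2:26785936-26786055, plus strand), ZWINT (chr10:56361260-56361379, minus strand), BUB1B (chr15:40160949-40161068, plus strand) and CDCA8 (chr1:37692396-37692515, plus strand).
CENPA: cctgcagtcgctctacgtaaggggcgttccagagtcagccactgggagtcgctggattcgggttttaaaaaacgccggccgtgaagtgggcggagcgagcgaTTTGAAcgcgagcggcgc
ZWINT: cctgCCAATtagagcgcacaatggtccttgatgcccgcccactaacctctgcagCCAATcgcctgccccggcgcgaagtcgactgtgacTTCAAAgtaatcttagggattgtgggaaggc
BUB1B: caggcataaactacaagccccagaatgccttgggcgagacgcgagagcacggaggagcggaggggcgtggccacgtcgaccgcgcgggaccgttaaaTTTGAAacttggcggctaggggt
CDCA8: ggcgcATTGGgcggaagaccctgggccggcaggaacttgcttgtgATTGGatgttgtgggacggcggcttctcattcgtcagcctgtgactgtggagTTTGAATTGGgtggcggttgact
In CDCA8 the CHR runs into a CCAAT match on the other strand. The next sequences are those of the members with the largest fall and the largest rise, SKA2 (chr17:59155187-59155306, minus strand) and MIS12 (chr17:5486254-5486373, plus strand), neither of which had a CHR match in its window.
SKA2: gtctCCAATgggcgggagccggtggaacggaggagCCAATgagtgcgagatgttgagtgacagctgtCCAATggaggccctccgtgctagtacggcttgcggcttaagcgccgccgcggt
MIS12: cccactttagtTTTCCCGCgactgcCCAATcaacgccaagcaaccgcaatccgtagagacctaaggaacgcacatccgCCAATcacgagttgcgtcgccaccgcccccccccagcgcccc
SKA2 showed CCAAT matches only, 5 in the whole window, and MIS12 showed CCAAT matches and an E2F match.

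Members with and without a CHR match had overlapping ranges of change, and a difference between them was not tested. The 21 genes with one had a median log2 fold change of -1.23, from -1.95 to 0.33, and the 14 without one had -1.02, from -2.32 to 0.52. Among the genes with a CHR match were BUB1B, NUF2 and CDCA8, which fell by 1.95, 1.82 and 1.81. CENPN and ZW10, which rose, also had a match, that of ZW10 at base -224 from the start. So did NDC80 and SKA1, which fell least among the outer kinetochore genes, while SKA2 and SPC24 had none. For CCAAT the medians were -1.14 over 24 genes with a match and -0.75 over 11 without. These are matches of letters in a window and show no binding.

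**Figure D4:**
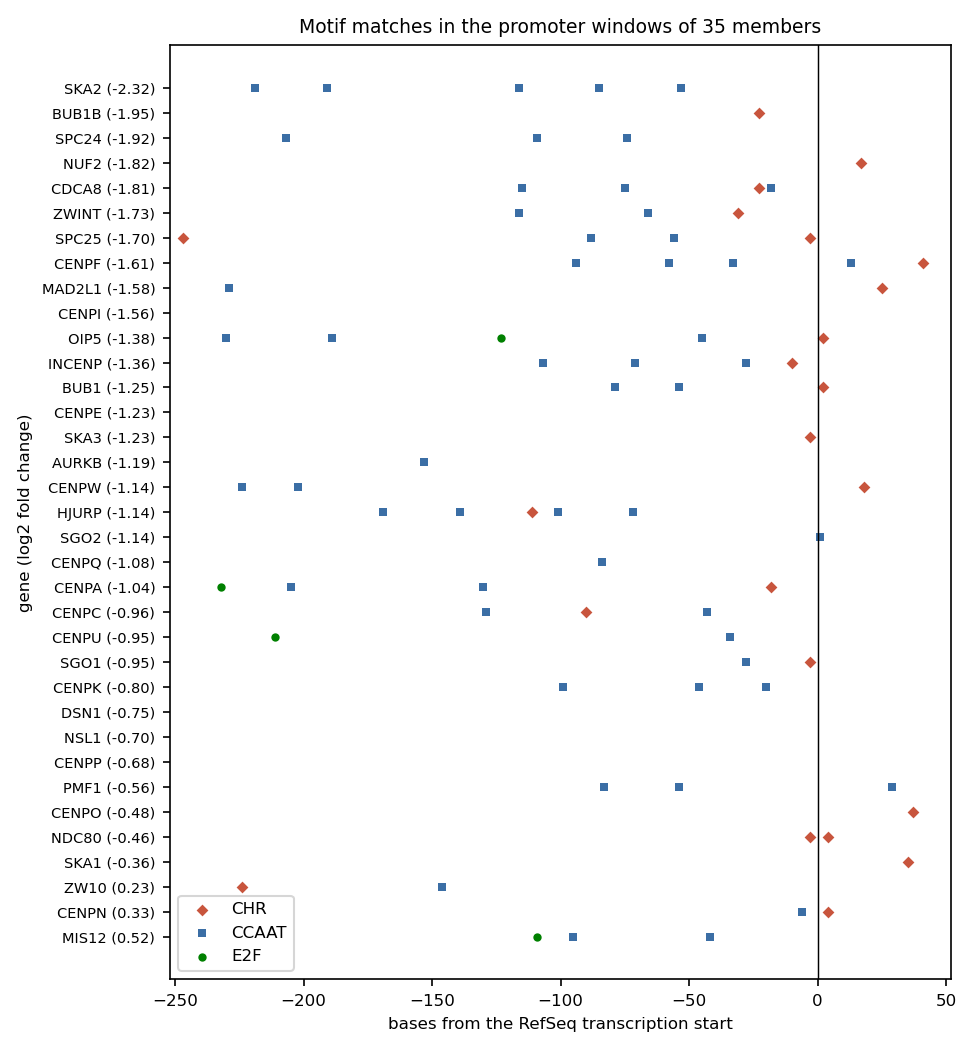
Position of CHR, CCAAT and E2F matches, in bases from the RefSeq start, in the windows of 35 members ordered by log2 fold change (in brackets). CHR matches lie mostly around the start, and rows with and without them occur from the top of the order to the bottom.

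Some members share their promoter region with a gene that runs the other way. In GENCODE 29, 12 members had a coding neighbour on the other strand whose start was within 1000 bases and head to head, and all 12 neighbours were tested. Of the 12 neighbours 7 fell, 4 rose and 1 did not pass, against 44.8% lower and 42.9% higher of all tested genes. Whether shares of so few genes differ from these was not tested. Their median log2 fold change was -0.21, and that of their 12 members was -0.75. SKA2 and PRR11, a gene linked to cell cycle progression whose start is 230 bases away, moved together, with PRR11 falling by 1.51 from a mean of 13.9 to 4.82 FPKM. OIP5 and NUSAP1, a spindle protein gene 73 bases away, also fell together, NUSAP1 by 0.85. MIS12 and DERL2, a gene of endoplasmic reticulum-associated degradation, overlap head to head with starts 526 bases apart, and DERL2 rose by 0.48 where MIS12 rose by 0.52. Other neighbours parted from the member. C1orf109, 169 bases from CDCA8, rose by 0.45, and TATDN3, 46 bases from NSL1, rose by 0.72. METTL4 starts 2 bases from NDC80 and had means of 1.40 FPKM in both groups (adjusted p = 0.948, limma).

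**Figure D5:**
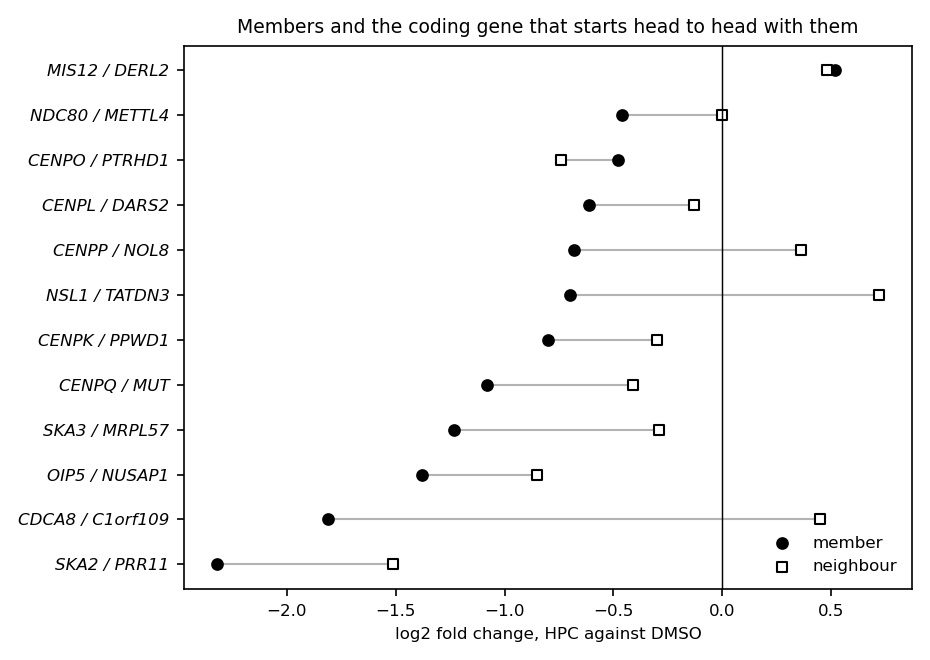
Log2 fold change of HPC against DMSO for 12 members (filled circles) and the coding gene that starts head to head within 1000 bases (open squares). MIS12 and DERL2 lie together at 0.52 and 0.48, SKA2 and PRR11 both lie under -1.5, and CDCA8 and C1orf109 are farthest apart.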

How the data were processed

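The authors deposited 1 table of FPKM for 16734 genes in 10 libraries of poly(A) RNA, read as paired ends. Per the submitters' processing notes, the build was GRCh38.p13 and the tools included STAR 2.7.7a, fastp 0.23.2 and edgeR (no version). How reads were counted, whether by strand, and with which annotation and gene lengths is not given in the sources used here. Every value of the 15208 genes detected in 3 or more libraries was a whole multiple of 1 read, to within 0.0001 of a read, which gave the depths. The number of columns not matched to a sample was 0.

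From these values log2(FPKM + 0.1) was computed, a scale that understates the change of low genes. A two-sided limma test (version 3.58.1, R 4.3.3, trend and robust) was run on the 9150 genes that reached 1 FPKM in 5 libraries, at a Benjamini-Hochberg threshold of 0.05 over those genes. limma's voom on the recovered reads was an alternative and called 4020 genes higher and 4027 lower. Fold changes of CENPP and SGO1 come from the fit without the filter. Pair ratios were tested in Python 3.11.15 with NumPy 2.4.6 by exact permutation. Chi-square per degree of freedom between libraries of a group was 11.8 to 24.9, above counting noise, so no library was treated as a copy. Both procedures were tested on simulated data.

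The members, lists and pairs were chosen with earlier results of these data known. Values in every library are given for the 2 most negative and the most positive tested member of each group, for 8 members fixed by name (CENPA, NDC80, KNL1, BUB1, BUB1B, MAD2L1, TTK and AURKB) and for both genes of the 3 pairs that differed most. Of each other list, the largest rise and the largest fall among its tested genes are given, with FOXM1, MYBL2, LIN54, RBL2, CDC20, TRIP13 and MAD1L1 whatever their values. Other members named beside them were described after their values were seen. Positions and overlaps are from GENCODE 29 and promoter windows from RefSeq. Alternatives changed the pseudocount, filter, scaling, variance model, test, block, fold threshold and libraries. The listed genes CD3E and CENPBD1 are not analysed here.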

Additional observations from a re-analysis of the deposited data

Results flagged for a closer look

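For each of the 44 members, both groups of 5 values were examined for a library that stood apart from the other 4 by Dixon's ratio at the 95% level. This gave 5 cases in 88 groups, where chance gives about 1 in 20, or 4.4. CENPH had 2 of them, 9.79 FPKM in DMSO replicate 1 with the others at 8.80 to 9.02, and 6.07 in HPC replicate 4 with the others at 4.95 to 5.20. OIP5 was at 0.944 FPKM in HPC replicate 4, with the others at 1.63 to 1.9. BUB3 was at 18.2 FPKM in DMSO replicate 1, with the others at 17.2 to 17.5, and TTK was at 6.41 in the same library, with the others at 5.69 to 5.79. In none of these cases did the library reach the other group.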

How the results depend on the processing

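No alternative reversed a member, and 39 members lower and 3 higher were counted with pseudocounts of 1 and 0.01, TPM rescaling, quantile normalization, no trend or robust step and voom. At a filter of 5 FPKM, 20 of 22 tested members were lower and 2 higher, against 1836 and 1969 of all 4240 tested genes. At a 1.5-fold minimum 32 members were lower and 0 higher, against 1861 and 1547 of all 9150 tested genes. Leaving out 1 library gave 36 to 39 lower, 3 to 3 higher and 9 to 12 differing pairs. The lowest of these, 36, came from leaving out a DMSO library, which leaves 39 members tested. The pairs numbered 10 with a pseudocount and 9 with limma. Deviations of each gene from its group mean correlated between same-numbered libraries at -0.059, 0.066, 0.199, 0.016 and 0.136 across tested genes. The numbers were therefore not taken as pairs, and 2 of 5 correlated best with their own number. A replicate block left 39 lower and 3 higher.

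Group medians moved by more than the replicate spread as follows, in the order inner kinetochore, CENP-A deposition, outer kinetochore, checkpoint, passenger complex and shugoshins. With a pseudocount of 1 they were -0.57, -0.98, -0.80, -1.22, -1.23 and -0.65, and with the non-mitochondrial sum, also with the replicate block, -0.96, -1.31, -1.39, -1.58, -1.69 and -1.19. A pseudocount of 0.01 gave -1.31 for the outer kinetochore and -1.17 for shugoshins. TPM rescaling gave -0.86 for the inner and -1.33 for the outer kinetochore, -1.47 for the checkpoint and -1.20 for shugoshins. Quantile normalization gave -1.14 and -0.94 for the outer kinetochore and shugoshins, and voom, which holds tested members only, -0.88 and -1.15 for the inner kinetochore and shugoshins. The cause of these shifts was not tested. Leaving out 1 library gave medians of -0.82 to -0.78, -1.19 to -1.12, -1.27 to -1.21, -1.43 to -1.40, -1.55 to -1.50 and -1.09 to -1.01 in the same order. ZW10 lost its call with the non-mitochondrial sum (0.07, adjusted p = 0.0871 by limma, or 0.0813 with the block). The fewest reads behind a member in a library were 105, and fold changes of genes under 1 FPKM in HPC, such as SGO1, KNL1 and SPC24, are understated by the pseudocount.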
